A study of Mus musculus with 10 samples.

Results

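The genes described are 8 markers of Schwann cells and of the myelin they make, Pmp22, Mbp, S100b, Sox10, Prx, Mag, Ncmap and Egr2, read in gastrocnemius muscle to judge how much nerve each library held. They were chosen by symbol, as 8 of the 21098 genes with a counted segment in the table, by a rule that uses no measured value but with earlier results of these data known. The muscle came from male WT C57BL/6J mice in which the high fat diet D12492i, given from 9 weeks of age, had produced diet-induced obesity (DIO) over 9 weeks. The 5 mice of the anti-miR-22 ASO group then received RES-010, an unconjugated antisense oligonucleotide against the microRNA miR-22, at 10 mg/kg once weekly for 14 weeks under the skin, and the 5 mice of the CTRL group received 0.9% saline in matched volumes. All 10 mice thus shared genotype, sex and diet, and the study had no ASO of scrambled sequence as a control. The design text gives the age as 30 weeks, whereas the stated intervals sum to 32 weeks. The question put to these genes was whether the libraries carried similar amounts of nerve RNA, and whether myelin genes differed between treated and control muscle.

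Schwann cells are the glia of peripheral nerves, and those around large axons wrap each internode in a spiral of membrane that is compacted into myelin and speeds conduction. A limb muscle holds motor and sensory axons in intramuscular nerve branches, so a piece of muscle contributes myelin RNA in proportion to the nerve it includes and to the activity of its Schwann cells. The program is switched on by the transcription factor Sox10, which acts with Egr2 (Krox20) to drive genes of the myelin sheath such as Pmp22, Mbp, Mag and Prx.

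The microRNA that the ASO targets is shown first, because a seed match is the sequence feature by which a direct target among these genes could be recognised. Capitals mark the seed, bases 2 to 8, in the mature miR-22-3p (RefSeq), and the complementary heptamer GGCAGCT in the stretches of 25 bases below it, read from GRCm39.
mmu-miR-22-3p: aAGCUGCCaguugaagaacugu
Ncmap: aagtccactctgctGGCAGCTtcac
Sox10: gtgggtagctactcGGCAGCTggct
Prx: cctaccctggatgtGGCAGCTccgt
The Ncmap stretch lies at chr4:135097804-135097828 on the minus strand, the Sox10 stretch at chr15:79040587-79040611 on the minus strand, and the Prx stretch at chr7:27216053-27216077 on the plus strand. Searched in the longest 3′UTR that the annotation gives a gene, the heptamer was present in 3 of the 8 genes, once in Ncmap, once in Sox10 and at 2 positions in Prx, against 16.7% of all 20968 genes with an annotated 3′UTR. Ncmap alone carried it in sequence that is 3′UTR and not coding in other isoforms, since the matches in Sox10 and Prx overlap the coding sequence of another isoform of the same gene. The Ncmap match falls inside the segment on which the reads of Ncmap were counted. No match was found in the longest 3′UTR of Pmp22, Mbp, S100b, Mag or Egr2. A match is a property of the sequence and does not show that miR-22 acts on the gene.

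Library totals lay between 1606909 and 2116720 counts in CTRL and between 2239186 and 2632560 with the ASO. CPM are counts scaled to a common library size. On these unscaled totals a floor of 3 counts corresponds to between 1.14 and 1.87 CPM, whereas the levels given below use library sizes scaled by the TMM method. Summed over the list of skeletal muscle fiber genes (Acta1, Ckm, Tnnc2 and others), every library carried muscle RNA, with 50076 to 98133 CPM in CTRL and 102349 to 160423 CPM with the ASO, so the treated libraries held more of it in each case. The part of this difference in the levels of the nerve genes was not tested. The libraries stood apart in 2 other ways, whose part in the levels of the myelin genes was not tested. CTRL replicate 3 held 14654 CPM of the adipocyte list against at most 3991 in any other library, and ASO replicate 4 held 7767 CPM of a list of slow fiber genes, chosen after its values were seen, against at most 2550 elsewhere. The levels of Pmp22, Mbp and S100b are compared with all 10 libraries and without ASO replicate 4, which was set apart with its values known. In bulk muscle, fewer Schwann cells and less RNA per Schwann cell cannot be told apart.

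How well each gene could be read depended on its isoforms. The deposited table gives read pairs on segments of at most 500 bp at the 3′ end of each transcript, and in these genes a segment without a base of its own, shared with no other segment, held 0 counts. S100b has a single segment of 500 bp at chr10:76096494-76096993 and was read over all of it. Pmp22 was read almost wholly, with 96.5% of its counts, on a 3′UTR segment of 151 bp at chr11:63049242-63049392, of which 82 bp belong to no other segment and which ends 981 bp before the most distal end. Prx was read on 120 unshared bp at the start of chr7:27219140-27219639 and Ncmap on 342 bp at chr4:135097538-135097879. Sox10 and Mag have 10 and 14 unshared bp in all, and Egr2, with 3 identical segments, has 0. Levels are therefore compared between libraries for 1 gene at a time and not between genes.

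Pmp22, the tetraspan protein of compact myelin whose gene dosage underlies the commonest inherited demyelinating neuropathy, had the largest change, in size, of the 3 members that passed the filter on low counts. Its counts were 40, 43, 121, 50 and 55 in CTRL replicates 1 to 5, and 10, 30, 12, 140 and 18 in ASO replicates 1 to 5. As CPM scaled by the TMM method, the level was 31.8 ± 16.5 (SD, n = 5) in CTRL and 17.9 ± 22.9 (SD, n = 5) with the ASO. Of the treated libraries, 4 lay between 4.83 and 12.7 CPM, under all 5 CTRL libraries at 18.9 to 59.8 CPM, whereas ASO replicate 4 reached 58.4 CPM. Over all 10 libraries the log2 fold change was -0.81 ± 0.62 (SE) and did not pass the test (adjusted p = 0.35, from the quasi-likelihood test of edgeR, adjusted by Benjamini-Hochberg over all genes tested, as for every adjusted p from edgeR given here). A two-sided exact permutation test over all labellings of the libraries gave p = 0.087 for Pmp22.

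Without ASO replicate 4, Pmp22 fell by 1.99 on the log2 scale (SE 0.42, adjusted p = 0.0054, edgeR), with a treated mean of 7.78 ± 3.71 CPM (SD, n = 4). This call stands against a background in which 17.1% of the 7920 genes tested without that library were called lower, and in which 15.6% had all treated libraries under all controls. ASO replicate 4, the treated library with the most Pmp22, was set apart with its values known. The adjusted p makes no allowance for that choice. CTRL replicate 3 was the highest of the control libraries at 59.8 CPM. With it alone left out, the log2 fold change of Pmp22 was -0.45 (adjusted p = 0.63, edgeR), the smallest in size with 1 library left out. With both CTRL replicate 3 and ASO replicate 4 left out it was -1.62 (adjusted p = 0.0054 from the same test, with 15.5% of genes called lower). Pmp22 is also made by fibroblasts, where it was first known as a growth arrest gene. The summed level of the fibroblast list fell into the same coarse groups, though not in the same order within them, at 408 to 751 CPM in CTRL, 163 to 374 CPM in the 4 other treated libraries and 744 CPM in ASO replicate 4. Of the 5 fibroblast genes tested, 1 was called lower, against 17.4% of all genes, and the median log2 fold change was -0.32. The called gene was Lum, a proteoglycan of the collagen matrix, which fell by 1.72 on the log2 scale (adjusted p = 0.0014, edgeR). Its log2 fold change was -1.97 without ASO replicate 4, where 2 of the 5 were called lower, the other being Col3a1 at -1.77 (adjusted p = 0.016, edgeR). The collagen genes Col1a1 and Col1a2 were at 0.36 and -0.04 with all 10 libraries and did not pass the test, and the collagens were named after their values were seen. The part of fibroblast RNA in the Pmp22 result was not tested.

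**Figure D1:**
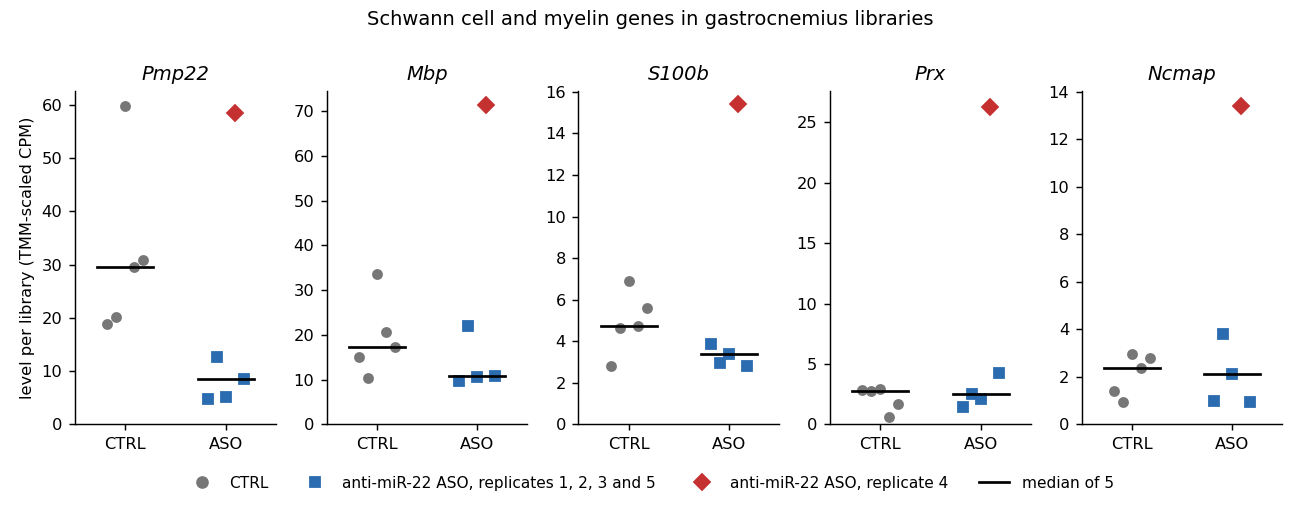
Level of 5 of the 8 genes in each library, in TMM-scaled CPM on axes that start at 0 and differ between genes. Points are libraries, with CTRL in grey, ASO replicates 1, 2, 3 and 5 in blue and ASO replicate 4 in red, and black lines are medians of 5. ASO replicate 4 is the highest library in every panel except Pmp22, where CTRL replicate 3 is slightly higher.

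Mbp encodes myelin basic protein, which binds the cytoplasmic faces of the membrane together in compact myelin. Its counts were 32, 22, 68, 35 and 31 in CTRL and 20, 52, 25, 171 and 23 with the ASO, or 19.4 ± 8.79 CPM against 24.9 ± 26.5 CPM (SD, n = 5 each). The groups overlapped, with ASO replicate 4 at 71.4 CPM, 2.12 times the next library, and 3 treated libraries at 9.66 to 10.8 CPM, near the lowest control at 10.3 CPM. The log2 fold change was 0.37 ± 0.55 (SE, adjusted p = 0.65, edgeR) and turned to -0.51 without ASO replicate 4 (adjusted p = 0.32), so neither its size nor its direction was larger than the spread between libraries. The two-sided exact permutation test gave p = 1 for Mbp.

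The Mbp locus carries a second, longer transcription unit (Golli), and its 10 segments on chromosome 18 separate in part by isoform. The segment that ends 1420 bp before the most distal end, at chr18:82601843-82602342, held 67% of the Mbp counts, although only 106 of its 500 bp are exon. It had 21, 9, 35, 28 and 24 counts in CTRL and 8, 41, 7, 140 and 8 with the ASO. The segment at chr18:82576329-82576828, which ends 26934 bp upstream of the distal end, had 10, 13, 30, 7 and 7 counts in CTRL and 12, 10, 16, 29 and 14 with the ASO. ASO replicate 4 thus stood at 58.4 CPM on the first segment, above every other library, but at 12.1 CPM on the second, where CTRL replicate 3 was higher at 14.8 CPM. Neither segment differed between the groups on its own, with log2 fold changes of 0.56 ± 0.73 and 0.11 ± 0.42 (SE, adjusted p = 0.57 and 0.85, edgeR over segments). The other segments at the shared distal end have at most 1 unshared base and held 1 count in all.

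S100b, the calcium-binding protein used as the standard marker of Schwann cells, was low throughout. It had 6, 10, 14, 8 and 10 counts in CTRL and 8, 7, 8, 37 and 6 with the ASO, which is 4.95 ± 1.5 CPM against 5.7 ± 5.46 CPM (SD, n = 5 each). ASO replicate 4 was again the highest library, and without it the treated mean was 3.26 ± 0.464 CPM (SD, n = 4). The log2 fold change was 0.22 ± 0.50 (SE, adjusted p = 0.77, edgeR) and -0.57 without ASO replicate 4 (adjusted p = 0.2). Without that library S100b passed the filter on low counts through control libraries alone. A gene so selected tends to come out lower in the other group, so the value of -0.57 is not read as a fall. The two-sided exact permutation test gave p = 0.9 for S100b. S100b is the member whose sign is least settled, as other fits than the leaving out of libraries turned it too.

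Prx and Ncmap showed the contrast between ASO replicate 4 and the other libraries most plainly. Prx encodes periaxin, which links the outer Schwann cell membrane to the basal lamina through Drp2, and it had 6, 6, 6, 1 and 3 counts in CTRL and 3, 6, 5, 63 and 9 with the ASO. ASO replicate 4 held 26.3 CPM of Prx, 6.2 times the next library. Ncmap encodes a small membrane protein of non-compact myelin and had 3, 2, 6, 4 and 5 counts in CTRL and 2, 9, 5, 32 and 2 with the ASO. Its level in ASO replicate 4 was 13.4 CPM, 3.49 times the next library. Both genes failed the filter on low counts, with at most 9 counts in each library other than ASO replicate 4. Fitted without that filter, their log2 fold changes were 1.72 (adjusted p = 0.13) and 1.05 (adjusted p = 0.32) by edgeR. Without ASO replicate 4 the treated means were 2.59 ± 1.19 CPM for Prx and 1.96 ± 1.36 CPM for Ncmap (SD, n = 4), against 2.17 ± 1.02 CPM and 2.1 ± 0.887 CPM in CTRL (SD, n = 5). Ncmap, the gene with a miR-22 heptamer in its counted segment, overlapped fully between the groups, from 2 to 6 counts in CTRL and 2 to 9 in the treated libraries other than replicate 4.

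Sox10 and Mag, the latter a cell adhesion molecule of the membrane next to the axon, had 1 count each, and both counts came from ASO replicate 4. Egr2 had 0 counts in all 10 libraries. With 10 or 14 unshared bp a count near 0 says little about expression, and for Egr2, without an unshared base, it carries no information. These 3 genes were therefore not measured to any useful depth.

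Of the 8 genes, 3 passed the filter on low counts, and 0 of these 3 were called in either direction at an adjusted p under 0.05, nor at an unadjusted p under 0.05, by edgeR. Over the 7813 genes tested, 29.2% were called, 11.8% higher and 17.4% lower, which corresponds to 920 and 1363 genes. The split between the directions moved with the scaling, to 528 higher and 1819 lower with total counts and to 1262 higher and 1206 lower with the upper quartile. With total counts the median gene moved by -0.18 on the log2 scale, and Pmp22, Mbp and S100b kept their sign under each scaling. DESeq2 called 0 of the 7 members it could fit, with 0 at an unadjusted p under 0.05, and limma-voom called 0 of 3 with 1 at an unadjusted p under 0.05. In 21.4% of the tested genes the groups did not overlap, and this held for 0 of the 3 members. The median log2 fold change of the 3 was 0.22, against -0.03 over all genes tested, and -0.57 without ASO replicate 4. The last value is that of S100b, which without that library passed the filter through control libraries alone.

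**Figure D2:**
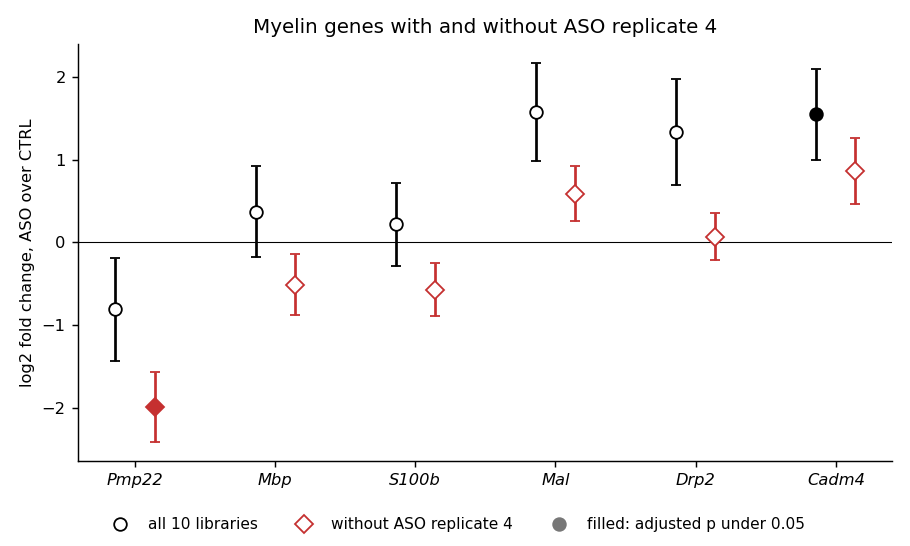
Log2 fold change of ASO over CTRL for 3 of the 8 genes and 3 other myelin genes, with bars for 1 SE, from all 10 libraries (circles) and without ASO replicate 4 (diamonds). Filled symbols have an adjusted p under 0.05. Cnp, also tested among the other myelin genes, is not drawn. Each gene sits lower without that library, Pmp22 passes the threshold only there, and Cadm4 passes it only with all 10 libraries.

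Most of the other genes of myelin structure and lipid synthesis with at least 10 counts were highest in the same library, by unequal margins. Of 13 such genes in the list, 4 were tested, 1 was called higher, against 11.8% of all genes, and 0 lower, and without ASO replicate 4 none of 4 was called, against 12.9% of all genes called higher there (0 at an unadjusted p under 0.05, edgeR). Drp2, the dystroglycan partner of Prx, had 12 to 16 counts in CTRL, 10 to 26 in 4 treated libraries and 150 in ASO replicate 4. Mal, a raft protein of myelin, had 6 to 18 counts in CTRL, 11 to 25 in 4 treated libraries and 130 in ASO replicate 4. Cadm4, the adhesion molecule on the Schwann cell side of the axon contact, was the called gene, with 4 to 18 counts in CTRL, 11 to 26 in 4 treated libraries and 83 in ASO replicate 4. Its log2 fold change of 1.55 (adjusted p = 0.049) became 0.86 without ASO replicate 4 (adjusted p = 0.12, edgeR). Cnp, the remaining tested gene, stood out least. It had 113 counts in ASO replicate 4, 1.76 times the median of the other libraries and 1.36 times the next library. Its log2 fold change was 0.37 with all 10 libraries (adjusted p = 0.3, edgeR). Pllp, Cldn19, Fa2h and Gldn were too low for the filter and were each highest in ASO replicate 4 as well.

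Ranked by library, ASO replicate 4 was the highest of 10 for 4 of the 5 members with at least 10 counts and for 9 of the 10 other myelin genes with as many, against 10.9% of the 11231 genes with as many counts in the whole table. The summed level of the 8 genes was 41, 38.7, 106, 57.8 and 58.4 CPM in CTRL and 20.8, 44.2, 23.3, 186 and 27.4 CPM with the ASO. ASO replicate 4 was thus at 4.53 times the median of the other 9 libraries, and 3 treated libraries were the lowest of the 10. For the other myelin genes the sums were 45.3 to 65.7 CPM in CTRL, 64.2 to 66.5 CPM in 4 treated libraries and 253 CPM in ASO replicate 4, 3.94 times the median of the other 9. The second highest library differed between these sums, being CTRL replicate 3 for the 8 genes and ASO replicate 5, by a small margin, for the other myelin genes.

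The summed lists for the other cells of a nerve were higher in ASO replicate 4 too, but by less. The summed axon list, led by the ubiquitin hydrolase Uchl1, stood at 3.68 times the median of the other 9 libraries, the perineurium and endoneurial fibroblast list at 2.66 times, the list of non-myelinating, terminal and repair Schwann cells at 2.34 times and the Schwann lineage regulators at 1.74 times. Few genes carried some of these sums. In ASO replicate 4, Slc2a1 held 76 of the 100 CPM of the perineurium list. Cspg4 and Scn7a held 48.4 and 40.9 of the 141 CPM of the non-myelinating list. Of the genes with at least 10 counts, this library was highest for 4 of 6 and 5 of 9 in these 2 lists. Which cells this RNA came from was not tested. The defining neurofilament genes of the axon list were at or near 0, with Nefl at 4 counts, Nefm at 2 and Nefh at 2 over all 10 libraries. These counts are not read as a lack of axon RNA. Tnnt3 and Mylpf of the muscle fiber list also had 0 counts in all 10 libraries. Erbb3, the neuregulin receptor of Schwann cells, had 60 counts in ASO replicate 4 against 10 to 33 in the others, and Lgi4, a secreted signal for myelination, had 61 against 15 to 33. Other regulators were not high there, with Zeb2 at 18 counts, 0.655 times the median of the other 9 libraries, and Foxd3 at 10 counts, 0.984 times that median. Lgi4, Zeb2, Foxd3 and Cspg4 were named after their values were seen. Of the regulators, 3 of 13 were tested and 0 were called (0 at an unadjusted p under 0.05, edgeR). The same held for 0 of 3 tested genes of the non-myelinating list, 0 of 2 of the axon list and 0 of 1 of the perineurium list. Over all genes tested 29.2% were called, so with so few genes these counts say little about the lists.

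On the lists of other tissues ASO replicate 4 stood at 0.955 times the median of the others for adipocyte genes, 1.04 times for muscle fiber genes, 1.55 times for macrophage genes, 1.59 times for endothelial genes, 1.58 times for immediate early genes and 1.82 times for fibroblast genes. On the slow fiber genes it stood at 18.5 times, where Myh7, the slow myosin heavy chain, had 641 counts against 0 to 135 in the others. Myelin genes and slow fiber genes were thus high in the same piece of muscle, and the part of the sampled region in the myelin levels was not tested. CTRL replicate 1 was second for slow fiber genes and had 41 CPM of the 8 genes. The relation of the 2 sums over the other libraries was not tested.

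**Figure D3:**
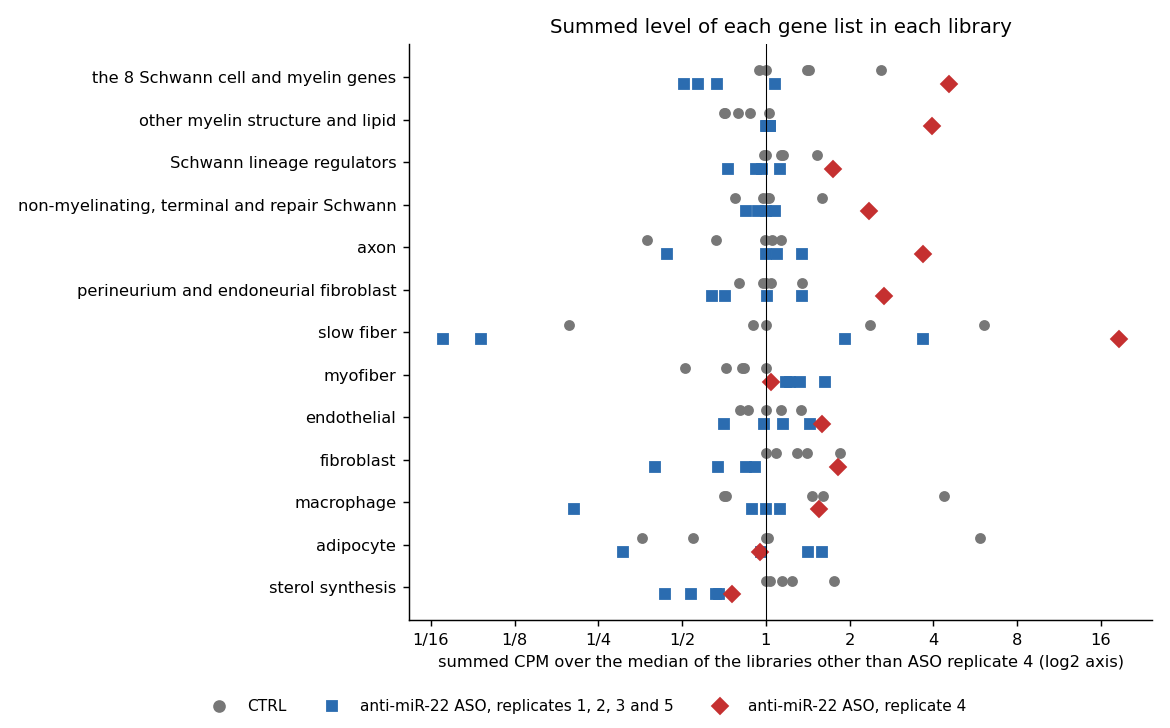
Summed CPM of each gene list in each library, divided by the median of the 9 libraries other than ASO replicate 4, on a log2 axis. Grey points are CTRL, blue squares ASO replicates 1, 2, 3 and 5, and red diamonds ASO replicate 4, which lies at 4.53 for the 8 genes, 3.94 for other myelin genes and 18.5 for slow fiber genes, but near 1 for muscle fiber and adipocyte genes.

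Ratios were formed within each library to set 1 myelin gene against another in the same RNA. Relative to Mbp, Pmp22 had 1.25, 1.95, 1.78, 1.43 and 1.77 counts per count of Mbp in CTRL and 0.5, 0.577, 0.48, 0.819 and 0.783 with the ASO. With Mbp summed over its segments, all 5 treated libraries, ASO replicate 4 included, lay under all 5 controls, with medians of 0.577 and 1.77. Of 7812 genes set against Mbp in the same way, 2.39% had all treated libraries under all controls. The ratio was formed for 4 genes after their values were seen and is given without a test. S100b per Mbp overlapped between the groups, at 0.188 to 0.455 in CTRL and 0.135 to 0.4 with the ASO, and so did Prx and Ncmap. Both Pmp22 and Mbp were read mostly on segments away from the most distal end, 981 and 1420 bp before it. Set against that Mbp segment alone, which held 67% of the Mbp counts, Pmp22 overlapped between the groups. ASO replicate 5 had 18 counts of Pmp22 for 8 on that segment, and CTRL replicate 4 had 50 for 28. The separation of the groups thus depends on which Mbp segments are summed.

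**Figure D4:**
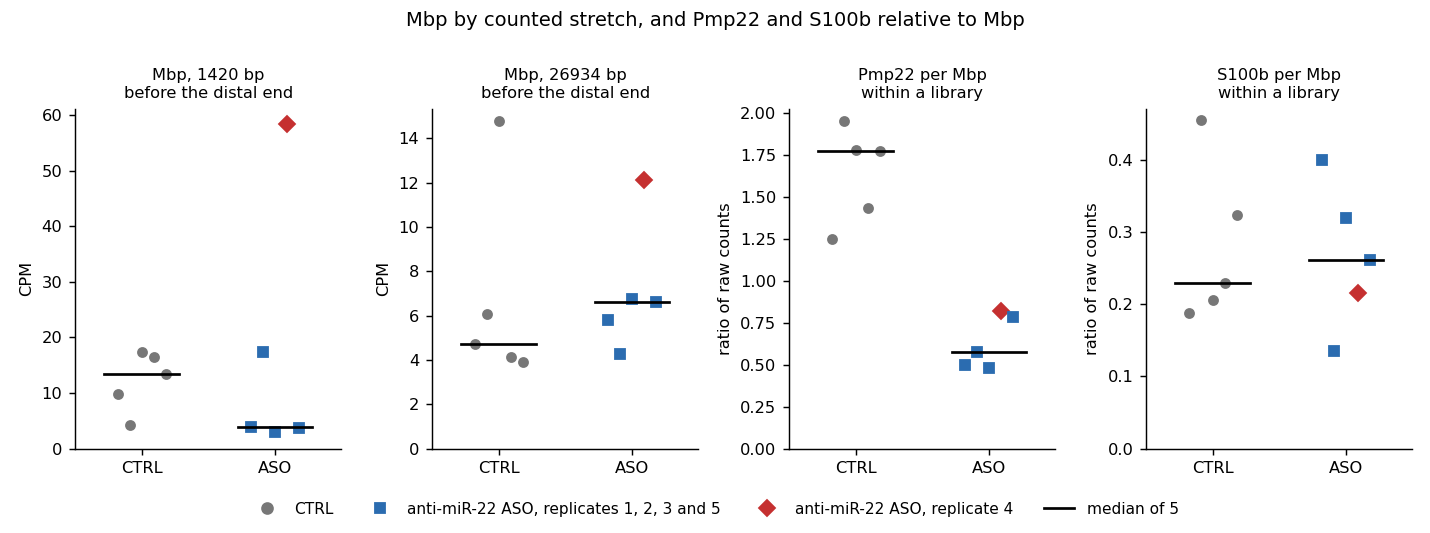
The left panels show Mbp in TMM-scaled CPM on its segments 1420 and 26934 bp before the most distal end, and the right panels the raw counts of Pmp22 and S100b per count of Mbp in each library. Points are libraries, black lines are medians of 5, and all axes start at 0. The ratios use Mbp counts summed over its segments. So formed, Pmp22 per Mbp is lower in all 5 treated libraries, between 0.48 and 0.819, than in all 5 controls, between 1.25 and 1.95. S100b per Mbp overlaps.

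The 5 members with counts varied together across libraries, and less so without ASO replicate 4. After the group mean of each gene was taken off log2(CPM + 0.5), Pearson's r over the 10 libraries had a median of 0.81 over the 10 pairs of these genes, from 0.63 for Prx with Ncmap to 0.97 for Pmp22 with Mbp. Without ASO replicate 4 the median was 0.33 over 9 libraries, from -0.22 to 0.90, and Pmp22 with Mbp (0.90) and Mbp with Ncmap (0.84) were the pairs that kept a high value. These values are descriptions, since the points share depth, RNA pool and scaling.

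Among 7666 other genes, those whose group-centred levels were most like the mean of Pmp22, Mbp, S100b and Prx over the 10 libraries were P3h3 (r = 0.989), a collagen prolyl hydroxylase family member, Hspa5 (0.950), the main chaperone of the endoplasmic reticulum, Aif1l (0.945), Abi3bp (0.936), a matrix protein, and Pdpn (0.924), podoplanin. Genes of all the lists, the other myelin genes among them, and the genes not reported here were left out of this search. It therefore cannot show whether myelin genes are the most alike. Without ASO replicate 4 the values were 0.95, 0.66, 0.84, 0.69 and 0.73. Hspa5 was the called one of the 5, lower with the ASO at a log2 fold change of -0.64 (adjusted p = 0.017, edgeR), with 921 to 1349 counts in CTRL and 673 to 1345 with the ASO, the highest of these in replicate 4.

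A myelin sheath is rich in cholesterol, which Schwann cells make themselves, so the enzymes of sterol synthesis were read beside the members. Of 15 genes, 9 were tested, 3 were called lower and 0 higher, against 17.4% and 11.8% of all genes tested, and 3 were lower without ASO replicate 4, where the share over all genes was 17.1%. Dhcr7, the last reductase of the pathway, had 36 to 74 counts in CTRL and 7 to 18 with the ASO, without overlap as in 21.4% of all genes tested, and fell by 1.97 on the log2 scale (adjusted p = 0.00056, edgeR). Fdft1, squalene synthase, fell by 1.67 (adjusted p = 0.0014), from 171 to 245 counts in CTRL to 32 to 133 with the ASO, and Hmgcs1 fell by 1.61 (adjusted p = 0.012), all by edgeR. The other 6 did not pass the test, and of these Nsdhl at 0.30 and Srebf2 at 0.11 on the log2 scale, named after their values were seen, were above 0. Muscle fibers, hepatocytes, adipocytes and most other cells express these enzymes too. Summed, sterol genes in ASO replicate 4 stood at 0.755 times the median of the other 9 libraries, where the myelin genes stood at 4.53 times.

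Of 10 genes in which mutations cause demyelinating neuropathy, 6 were tested and 0 were called (1 at an unadjusted p under 0.05, edgeR), against 29.2% of all genes. Mtmr2, a phosphoinositide phosphatase that limits myelin outfolding, failed the filter over all libraries with 8, 14, 25, 22 and 33 counts in CTRL and 6, 2, 2, 1 and 1 with the ASO. Fitted without the filter it was called lower over all 10 libraries, with a log2 fold change of -3.21 (adjusted p = 0.0011, edgeR), as were 9.54% of the 14134 genes in that fit. Without ASO replicate 4 the smallest group is smaller, and Mtmr2 passed the filter through control libraries alone. It was then called lower at -3.02 (adjusted p = 0.0036, edgeR), as were 17.1% of all genes. A gene that passes only through the group where it is high tends to be called lower in the other. This call therefore adds no separate support. Ndrg1, a Schwann cell protein that muscle also makes, had 98 to 148 counts in CTRL, 114 to 185 in 4 treated libraries and 432 in ASO replicate 4.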

How the data were processed

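Stranded, polyA-selected libraries of gastrocnemius RNA from 5 DIO mice given the ASO and 5 CTRL mice were sequenced as paired ends. The authors deposited raw counts, which are not normalized: reads were trimmed (fastp), aligned to GRCm39 (STAR) and counted as pairs (featureCounts) within at most 500 bp at each 3′ end. The strand option of the counting is not given in the sources used here. The 4 per-sample columns that match no sample were not used. Of 52423 segments, 52361 were matched by transcript ID to GENCODE M39 and summed per gene, and the 62 others, with 0.0197% of the counts, were left out.

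The test was edgeR 4.0.16 under R 4.3.3 (TMM, filter on low counts by group, quasi-likelihood test with Benjamini-Hochberg adjustment over all genes tested, threshold 0.05), with group as the only term. The levels are CPM on TMM-scaled library sizes, with a pseudocount of 0.5 on the log2 scale, and errors are SDs or SEs as named. DESeq2 1.42.0 and limma-voom (limma 3.58.1) were alternatives, as were other scalings and filters, the replicate number as a block, the most distal segment alone, drawing all libraries down to the smallest total and leaving out each library. Single genes were also tested by two-sided exact permutation over all labellings, where the smallest possible p is 0.0079. Python 3.11.15 with pandas 2.3.3 served for the rest, and the fit was tested on simulated data.

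The 8 genes and all lists were chosen with earlier results of these data known. Named are the 8 genes, called genes of the other lists (at most 8 each), defining markers and the 5 most like genes; others, such as Prx's partner Drp2, Mtmr2 and Ndrg1, were named after their values were seen. The labels number the libraries of a group without naming the animals, so p-values measure the spread between these libraries, part of which may be technical. Samples with the same replicate number did not deviate together (r over 0.1 in 1 of 5 pairs). Floors of 3 counts cover counting error only. Coordinates are 1-based on GRCm39. Some myelin genes are not reported here and were left out of the lists, though the fit was made on the whole table.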

Additional observations from a re-analysis of the deposited data

Results flagged for a closer look

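In 4 of 40 groups of 5 libraries looked at, 1 library lay far from the other 4 by Dixon's ratio, the gap to the nearest library over the whole range of log2(CPM + 0.5), whose critical value is 0.71; chance passes it in about 1 of 20 groups. S100b in ASO replicate 4 had a ratio of 0.827 at 15.4 CPM against 2.83 to 3.86 CPM in the other treated libraries. The summed level of the other myelin structure and lipid genes in ASO replicate 4 had a ratio of 0.975, at 253 CPM against 64.2 to 66.5 CPM. The summed level of the non-myelinating, terminal and repair Schwann cell genes in ASO replicate 4 had a ratio of 0.763, at 141 CPM against 51.2 to 65.1 CPM. The summed macrophage genes were lowest in ASO replicate 5, with a ratio of 0.727, at 75.5 CPM against 332 to 577 CPM. Pmp22, Mbp, Prx and Ncmap did not pass the critical value in either group. The cause of these distances was not tested.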

How the results depend on the processing

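Without ASO replicate 4 the number of members called lower went from 0 to 1 (Pmp22), and it was also 1 without CTRL replicate 3 and ASO replicate 4; over all fits with 1 library left out it lay between 0 and 1, and the number called higher stayed at 0. With 1 library left out, the log2 fold change ranged from -1.99 to -0.45 for Pmp22, -0.51 to 0.67 for Mbp and -0.57 to 0.40 for S100b, and reversed for Mbp and S100b without ASO replicate 4. Without CTRL replicate 3 and ASO replicate 4 it was -0.21 for Mbp. S100b also reversed to -0.07 with limma-voom, -0.04 with the replicate block and -0.08 on the most distal segment alone. Genes called higher numbered 528 with total counts and 232 on the most distal segment alone, where 335 were called lower, and over fits with 1 library left out 692 to 1021 were called higher and 1127 to 1369 lower. The replicate block gave 662 higher and 1172 lower, with 0 members called and a log2 fold change of -1.29 for Pmp22 (adjusted p = 0.13, edgeR). Cadm4 lost its call in 12 alternatives and Mal gained one in 4. The causes were not tested. Counts of 1 to 9 in each library other than ASO replicate 4 limit what Prx and Ncmap can show, and Sox10, Mag and Egr2 were not measurable.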
